A study of Rattus norvegicus with 6 samples.

Results

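In the 4 mutant libraries of this series, 98 of 26404 genes took levels that crossed the labels: replicate 1 of the BMPR2 tail domain mutant went with replicate 2 of the kinase domain mutant, and the other two mutant libraries went together. The first of these pairs is called pair A here (tail mutant replicate 1 and kinase mutant replicate 2), and the second pair B (tail mutant replicate 2 and kinase mutant replicate 1). A gene belongs to the set if its lowest level in one pair was at least 1 CPM (the count per 1000000 counts in genes of that library) and at least 3 times its highest level in the other pair, with counts under 3 raised to 3 on the lower side. Each fold is therefore a lower bound of the ratios counted between libraries of the 2 pairs, and no confidence limit. The genes were thus chosen by their measured difference between the pairs, which is described without a test.

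The cells were H9c2, a rat myoblast line of embryonic heart origin, spelled Hc92 in another field of the labels. Polyadenylated RNA was sequenced from 3 groups of 2 libraries: cells with an empty vector, cells with a BMPR2 tail domain mutant and cells with a BMPR2 kinase domain mutant, the first being the reference for both mutants. The titles speak of domain mutants and the design text of cells that lack these domains. How the constructs were introduced, whether a group is 1 clone, and whether its replicates came from separate cultures were not given in the sources used here, so p-values reflect how far these libraries differ, for biological or technical reasons alike.

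Bone morphogenetic proteins signal through BMPR2, their type II receptor. On ligand binding its kinase domain phosphorylates a type I receptor, which in turn phosphorylates SMAD transcription factors, and its long cytoplasmic tail binds other signalling and cytoskeletal proteins. Mutations in the gene underlie heritable pulmonary arterial hypertension. The genes are known here by Ensembl identifier only. The functions of the 98 genes, the level of Bmpr2 and markers of the cell line or of other cell types were therefore not looked up, and no promoter or protein sequence is shown.

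Total counts in genes ranged from 19116082 to 24936136 per library. Tail mutant replicate 2, in pair B, stood apart in composition: its 10 most counted genes took 16.0% of its gene counts, against 19.9% to 22.1% in the other libraries. The share of uniquely aligned reads in no annotated gene was higher in both libraries of pair B than in those of pair A, most of all in tail mutant replicate 2. It was 23.0% and 22.6% in the libraries of pair A (tail and kinase mutant), 25.3% and 23.9% in those of pair B, and 22.5% and 21.3% in empty vector replicates 1 and 2. The part of either measure in the differences below was not tested.

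The set was uneven. Pair B was the higher pair in 80 genes, 0.739% of the 10831 genes with at least 1 CPM in both of its libraries, and pair A in 18 genes, 0.167% of 10798. The same rule applied between the labelled groups found 19 genes, of which 4 were higher in the tail mutant (0.0372% of 10754) and 15 higher in the kinase mutant (0.139% of 10798). All of these shares describe the rule itself, and nothing was tested with them. Under TMM scaling the numbers for the pairs became 72 and 22, with 71 and 18 of the reported genes among them.

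**Figure D1:**
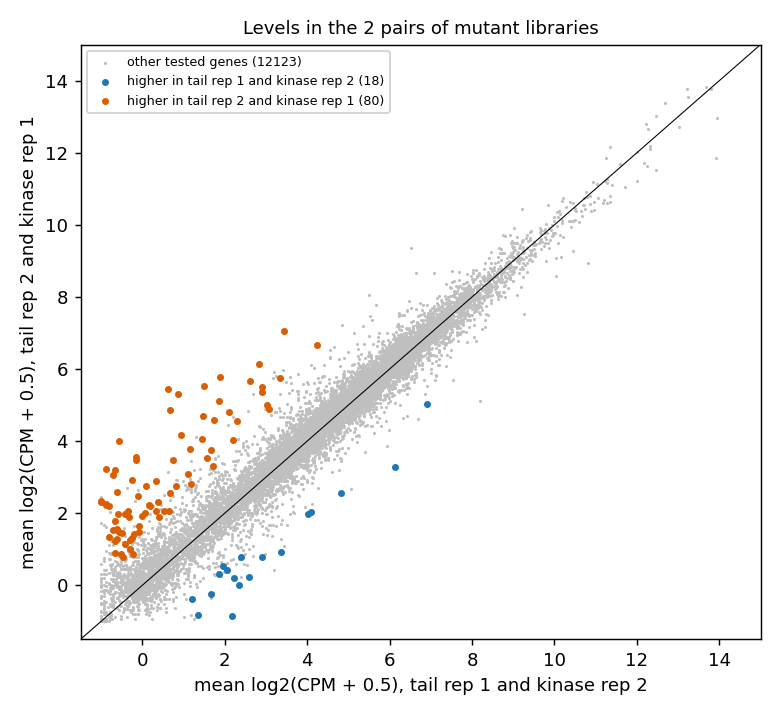
Mean log2(CPM + 0.5) in pair B (vertical axis) against pair A (horizontal axis), 1 point per tested gene, with the line of equal levels. The 80 genes higher in pair B lie above the line and the 18 higher in pair A below it, most of them at low levels.

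Leaving out 1 library, which weakens the criterion, left pair B the more frequent higher pair each time. Without tail mutant replicate 2, the library of unusual composition, 167 genes were higher in kinase mutant replicate 1 than in both libraries of pair A, and 40 were lower. Without kinase mutant replicate 1 the numbers were 364 and 149. They were 146 and 72 without tail mutant replicate 1, and 133 and 43 without kinase mutant replicate 2.

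Most members were low in expression even where they were high. The lowest level in the higher pair had a median of 4.24 CPM among the 80 genes and 3.93 CPM among the 18, and reached 108 CPM and 119 CPM. It lay under 5 CPM in 43 of the 80 genes and in 10 of the 18. The highest level in any mutant library had a median of 7.56 CPM among the 80 genes and 6.18 CPM among the 18, against 27.7 CPM over the 12221 genes tested. In the lower pair, 7 of the 80 genes and 1 of the 18 had under 3 counts in both libraries, so that the floor alone set the fold of these genes. A raised count also set the fold of a gene higher in pair B with 3 and 2 counts in pair A (45.9-fold). The same held for a gene higher in pair A with 0 and 3 counts in pair B (8.13-fold).

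Of the genes higher in pair B, ENSRNOG00000003841 had the largest fold. It stood at 7.74 CPM in tail mutant replicate 2 and 10.3 CPM in kinase mutant replicate 1, from 148 and 221 counts. Both libraries of pair A held 1 count of it, and the empty vector libraries held 0 and 2 counts. A count of 0 allows up to 0.120 CPM in replicate 1. The gene was thus at or under 2 counts in the empty vector cells and in both libraries of pair A. Its level in pair B was at least 56.6-fold higher than in pair A.

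ENSRNOG00000047605 followed the same course at a somewhat higher level. It was counted at 19.8 CPM in tail mutant replicate 2 and 12.0 CPM in kinase mutant replicate 1. In tail mutant replicate 1 it stood at 0.132 CPM and in kinase mutant replicate 2 at 0.228 CPM, with 3 and 5 counts. Empty vector replicate 1, at 0.602 CPM, lay between the pairs, and replicate 2, at 0.0986 CPM, below both. The lower bound of the fold between the pairs was 52.7.

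ENSRNOG00000004438 led the genes higher in pair A that reached 5 CPM in both libraries. Its level was 10.5 CPM in tail mutant replicate 1 and 9.12 CPM in kinase mutant replicate 2, against 1.41 CPM in tail mutant replicate 2 and 1.35 CPM in kinase mutant replicate 1. Both empty vector libraries, at 14.3 CPM and 33.2 CPM, lay above all 4 mutant libraries. The lower bound of the fold between the pairs was 6.46.

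ENSRNOG00000007882 came next, with 5.93 CPM and 8.16 CPM in pair A (tail and kinase mutant) and 1.10 CPM and 1.35 CPM in pair B. Its 2 empty vector libraries fell in different places: replicate 1, at 4.57 CPM, between the pairs, and replicate 2, at 12.2 CPM, above both. The lower bound of its fold was 4.39.

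The lower bound of the fold had a median of 4.62 among the 80 genes and 3.75 among the 18. It was at least 5 in 37 of the 80 genes and in 3 of the 18, and at least 10 in 16 and in 1. Near the threshold, the 3 members with the smallest fold had 3.01, 3.03 and 3.08 among genes higher in pair B, and the nearest genes outside had 2.94, 2.93 and 2.92. Among genes higher in pair A the values were 3.08, 3.17 and 3.27 inside and 2.94, 2.94 and 2.88 outside. The threshold thus fell within a continuous range of folds.

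Within the set, the replicates of the 2 mutants were apart by like amounts. The rule sets the replicates of each mutant at least 3-fold apart in every member, so nothing is read from this likeness. Over the 12123 tested genes that are not members, the tail mutant replicates were less alike. Pearson's r of their log2 levels was 0.961, against 0.979 between the kinase mutant replicates. Among the 80 genes, tail mutant replicate 2 stood above replicate 1 by a median of at least 8.43-fold, and kinase mutant replicate 1 above replicate 2 by a median of at least 8.23-fold. Among the 18 genes the medians were at least 5.27-fold between the tail mutant libraries and at least 4.74-fold between the kinase mutant libraries, in the opposite direction. Within the higher pair the levels were closer: the ratio of the larger to the smaller had a median of 1.61 among the 80 genes and 1.32 among the 18, and was at most 2 in 53 and in 16 genes. Its largest value was 6.74, for a gene at 13.8 CPM in tail mutant replicate 2 and 2.05 CPM in kinase mutant replicate 1. The rule sets a minimum for the replicate differences and none for this ratio, so nothing is read from their contrast either.

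Neither library of pair B was the higher one throughout. Among the mutant libraries, 49 of the 80 genes had their highest level in tail mutant replicate 2 and 31 in kinase mutant replicate 1. Of the 18 genes, 6 were highest in tail mutant replicate 1 and 12 in kinase mutant replicate 2. In their lower pair, 15 of these 18 genes were higher in kinase mutant replicate 1 than in tail mutant replicate 2.

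**Figure D2:**
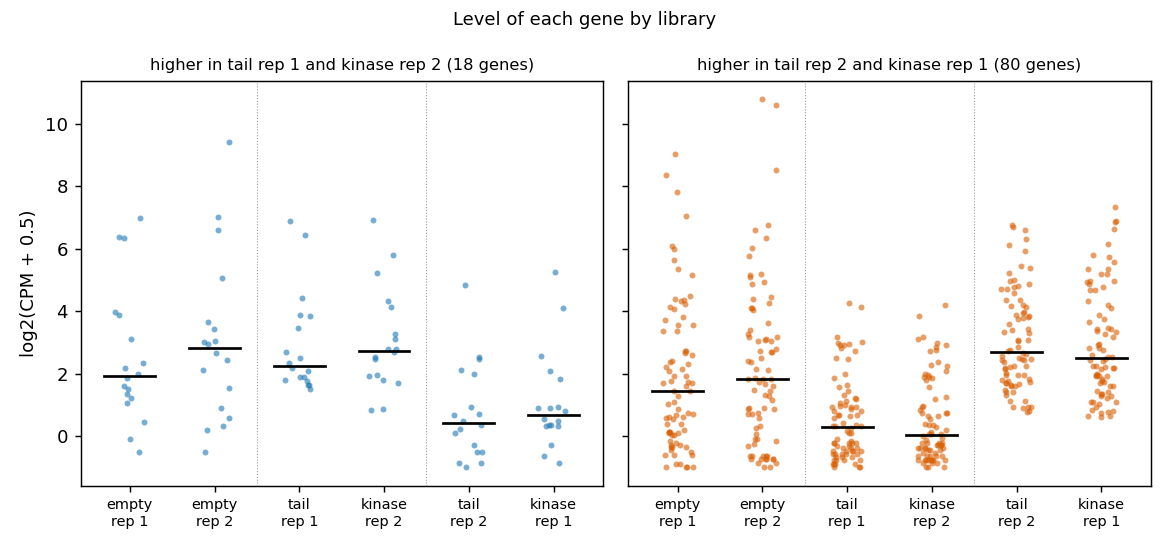
Level of every member, as log2(CPM + 0.5), in each of the 6 libraries, for the 18 genes higher in pair A (left) and the 80 genes higher in pair B (right). Points are genes, offset sideways at random, and black bars are medians: for the 80 genes the median was 5.96 CPM and 5.17 CPM in pair B (tail and kinase mutant), 0.725 CPM and 0.524 CPM in pair A, and 2.23 CPM and 3.06 CPM in the empty vector libraries, which held the highest single values.

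Together the 80 genes took 0.127% of the gene counts in tail mutant replicate 2 and 0.139% in kinase mutant replicate 1, against 0.0156% in tail mutant replicate 1 and 0.0149% in kinase mutant replicate 2. Their share in the empty vector libraries was 0.177% in replicate 1 and 0.454% in replicate 2, above every mutant library, but this order rested on 2 genes. Without them the 80 genes' share was 0.0917% and 0.122% in empty vector replicates 1 and 2, below the 0.124% and 0.129% in pair B (tail and kinase mutant). These 2 genes were picked as the highest in empty vector, and the rule picked the 80 as higher in pair B than in pair A. Both choices work toward the second order, and nothing more is read from it. The member most abundant in empty vector stood at 524 CPM and 1762 CPM there, at 25.6 CPM and 71.0 CPM in pair B, and at 1.41 CPM and 0.729 CPM in pair A. A second stood at 331 CPM and 1565 CPM in empty vector, at 10.2 CPM and 25.3 CPM in pair B, and at 1.98 CPM and 2.46 CPM in pair A.

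Outside the set, the 2 pairs were not equally close. Pearson's r of log2(CPM + 0.5) was computed across the 12123 tested genes that are not members, which share libraries and are not independent replicates. It was 0.987 between the libraries of pair A, the highest of the 15 pairs of libraries, and 0.962 between those of pair B. Kinase mutant replicate 1 had a higher r with tail mutant replicate 1 (0.980) and with kinase mutant replicate 2 (0.979) than with its partner in pair B. Tail mutant replicate 2 had its highest r with kinase mutant replicate 1 (0.962), almost level with the 0.961 with the other tail mutant library. Over all 12221 tested genes, members included, these values were 0.962 and 0.957. The members were chosen as different between the pairs, so leaving them out works toward a higher r across pairs. Over the genes outside the set, the library closest to kinase mutant replicate 1 was thus not its partner in pair B.

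The empty vector libraries, which the rule did not use, showed where these genes stood in cells without a mutant. Among the 80 genes they took no single side: both empty vector libraries lay at or above the lowest level of the higher pair in 10, between the pairs in 24 and at or below the highest level of the lower pair in 10. In the other 36 genes the 2 libraries fell in different places. Among the 18 genes higher in pair A, replicate 1 lay on the higher side in 6, between the pairs in 11 and on the lower side in 1, and replicate 2 in 10, 7 and 1. Both lay on the higher side in 4, between the pairs in 5 and on the lower side in 0, and in 9 they fell in different places. In 1 gene of each direction, 1 empty vector library matched the higher pair and the other the lower pair.

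**Figure D3:**
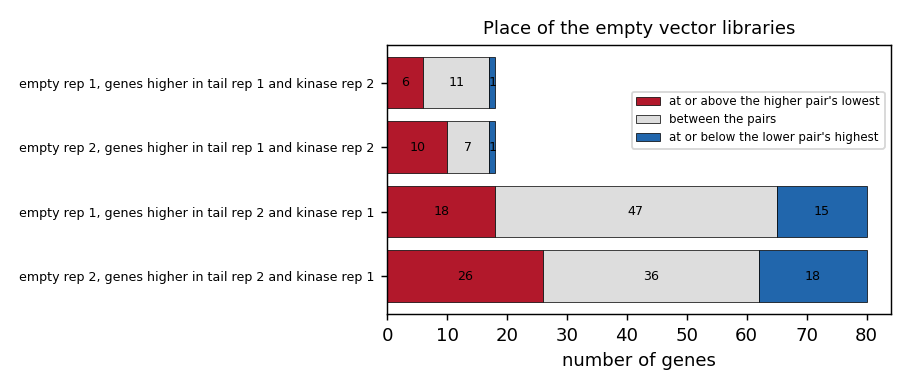
Number of members (horizontal axis) in which each empty vector library lay at or above the higher pair's lowest level, between the pairs, or at or below the lower pair's highest level. For the 80 genes higher in pair B the numbers were 18, 47 and 15 in replicate 1 and 26, 36 and 18 in replicate 2, and for the 18 genes higher in pair A they were 6, 11 and 1 in replicate 1 and 10, 7 and 1 in replicate 2.

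The empty vector replicates were themselves apart in some members. Replicate 2 was at least 3-fold above replicate 1, with at least 1 CPM, in 13 of the 80 genes and 3 of the 18, where 1.60% of the 12221 tested genes met that criterion. Replicate 1 was at least 3-fold above replicate 2 in 5 and in 1, against 0.974% of tested genes. With 1 library on each side there is no test of these differences. The members' levels were lower than those of tested genes in general, and the part of level in these counts was not tested.

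On balance the members were higher in empty vector replicate 2. The log2 difference between replicate 2 and replicate 1 (CPM + 0.5) had a median of 0.39 over the 80 genes and 0.45 over the 18, against -0.10 over all tested genes, and replicate 2 was the higher in 52 of the 80 and 11 of the 18. The median thus had the same sign in both directions of the set, while single genes among the 18 ranged from -1.21 to 2.63. The part of the members' lower level in these medians was not tested. Across the 98 members, Pearson's r between the difference of the empty vector replicates and the difference of pair B from pair A was -0.11. Across the 12123 tested genes that are not members it was 0.14. Members were chosen on the second of these differences, so the first value is over a selected range. The members with the widest difference were a gene at 2.57 CPM and 21.3 CPM and a gene at 17.2 CPM and 1.72 CPM in replicates 1 and 2, both higher in pair B than in pair A.

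**Figure D4:**
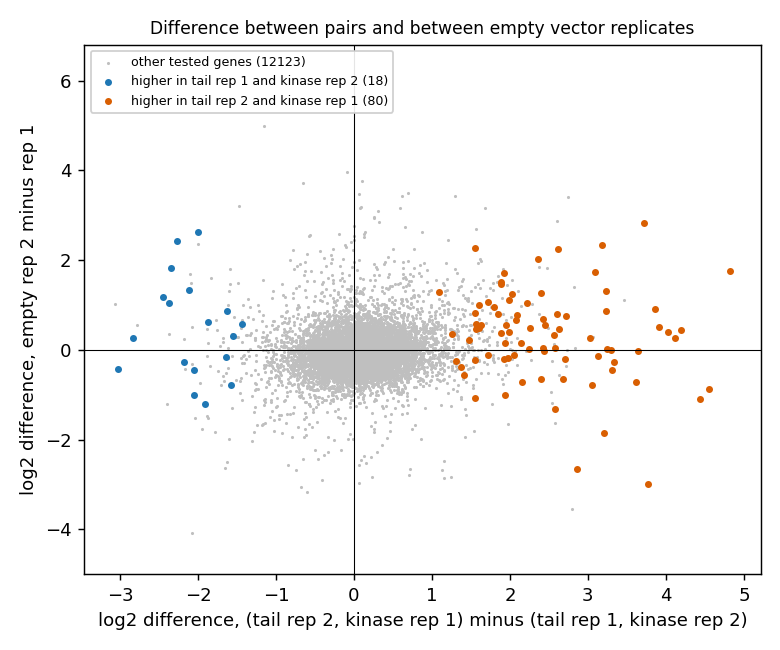
Log2 difference between empty vector replicates 2 and 1 (vertical axis) against the log2 difference between pairs B and A (horizontal axis), both of CPM + 0.5, 1 point per tested gene. Members of both directions spread above and below 0 on the vertical axis, with medians of 0.45 for the 18 genes on the left and 0.39 for the 80 on the right.

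The comparisons that the labels define were then read for these genes. Counts were fitted with edgeR's quasi-likelihood test over all 12221 tested genes, with Benjamini-Hochberg adjustment and a threshold of 0.05, and all 98 members were tested, since the rule's minimum of 1 CPM in 2 libraries lies above the filter on low counts. A gene of this set has by choice a wide spread within each mutant, which widens the error of every comparison with a mutant. The comparisons with empty vector share the empty vector libraries, and each is given by itself.

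No member was called between both mutants together and empty vector, where 0.0327% of tested genes were called by edgeR. EdgeR's unadjusted p was below 0.05 for 9 of the 98 (3 of them higher in the mutants), a share near the 11.4% of tested genes. DESeq2 called 4 members, 2 higher and 2 lower, against 3.44% of tested genes. Its unadjusted p was below 0.05 for 18 (12 of them higher in the mutants), against 12.2%. The more frequent direction at this level thus differed between the tools. The fitted log2 change had a median of 0.43 over the 80 genes higher in pair B and -0.39 over the 18 higher in pair A, against -0.005 over all tested genes. The rule chose the genes on the mutant libraries that enter this change, so nothing is read from these medians.

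The 4 members called by DESeq2 lay outside the mutants' range in both empty vector libraries. One stood at 331 CPM and 1565 CPM in empty vector and is described above (log2 change of -6.65 ± 1.26 SE, Benjamini-Hochberg adjusted p of 2.19e-05 in DESeq2). A gene higher in pair A stood at 125 CPM and 678 CPM in empty vector, at 21.0 CPM and 37.1 CPM in pair A, and at 5.34 CPM and 5.40 CPM in pair B (log2 change of -4.49 ± 1.23 SE, adjusted p of 0.0127 in DESeq2). The other two were lowest in empty vector, one at 0.802 CPM and 0.148 CPM and the other at 0.201 CPM and 0.148 CPM there, and both were higher in pair B than in pair A (adjusted p of 0.0457 and 0.0135 in DESeq2). In every edgeR fit run, these 4 genes did not pass, with adjusted p from 0.161 to 0.998.

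Over the whole set, both empty vector libraries lay above all 4 mutant libraries in 7 of the 80 genes and 2 of the 18, where 17.2% of tested genes did so. They lay below all 4 in 3 of the 80 and 0 of the 18, against 5.99% of tested genes. A gene spread over a wide range in the mutants leaves less room outside that range, so these counts are tied to the choice of the genes.

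For the 4 genes named above, edgeR detected no difference of both mutants from empty vector. The log2 change was 6.51 ± 3.0 (SE) for ENSRNOG00000003841 and 4.48 ± 2.31 for ENSRNOG00000047605, with edgeR adjusted p of 0.492 and 0.540. It was -1.97 ± 0.94 for ENSRNOG00000004438 and -0.93 ± 0.92 for ENSRNOG00000007882, with edgeR adjusted p of 0.503 and 0.741. Single libraries moved these values. For ENSRNOG00000003841 the change was 3.17 without kinase mutant replicate 1, 3.44 without tail mutant replicate 2 and 9.61 without empty vector replicate 2. With so few counts in empty vector, its fitted change depends on the prior count and is no bound. For ENSRNOG00000047605 it was 1.48 with tail mutant replicate 2 left out and 2.13 with kinase mutant replicate 1 left out. For ENSRNOG00000004438 it was -3.08 without tail mutant replicate 1 and -1.18 without empty vector replicate 2. For ENSRNOG00000007882 it was 0.015 with empty vector replicate 2 left out and -1.84 with tail mutant replicate 1 or kinase mutant replicate 2 left out. Over the alternatives the adjusted p of these genes ranged from 0.220 to 0.999 with Benjamini-Hochberg adjustment in edgeR or DESeq2.

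Against empty vector alone, the tail mutant gave 0 members called by edgeR, with 0.00818% of tested genes called, and 6 with an unadjusted p below 0.05, of which 5 were lower, against 8.56% of tested genes. DESeq2 called 2 members, both lower in the tail mutant, against 2.03% of tested genes. With it 15 had an unadjusted p below 0.05, of which 9 were higher, against 9.52%. In the kinase mutant edgeR likewise called 0 members, with 0.00818% of tested genes called, and 7 had an unadjusted p below 0.05 (of which 4 were higher), against 10.8%. There DESeq2 called 2 members, 1 higher and 1 lower, against 2.95% of tested genes. With it 12 had an unadjusted p below 0.05 (of which 8 were higher), against 11.8%. Between the tail and the kinase mutant the rule used the same 4 libraries, and nothing is read from the counts: 0 members were called by edgeR or DESeq2 or had an unadjusted p below 0.05 with either tool, against 0% (edgeR) and 0.0982% (DESeq2) of tested genes called and 3.67% and 4.52% at an unadjusted p below 0.05.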

How the data were processed

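The authors deposited 1 file per library with unnormalized read counts for each Ensembl gene. HTSeq 0.6.1p1, STAR 2.4.0 and Trimmomatic 0.33, with the build Rnor_5.0, are listed in the submitters' processing notes. The sources used here do not state the annotation release or strand setting, so antisense partners are not distinguished. The 5 rows that name no gene were left out of totals and tests. They include reads in no annotated gene, 15.4% to 17.5% of all rows' total, and alignments that were not unique, 27.3% to 31.5%.

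The gene table used here (GRCr8) gives an Ensembl identifier for 0 of 47357 genes, so 0 identifiers matched a symbol, and the 31 gene and marker lists written for this report were not tested. Named genes are the first 2 per direction by lower-bound fold with at least 5 CPM in both libraries of the higher pair. Further members are given by their values without identifiers. The members, lists and tests were chosen with earlier results of these data known.

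Counts were fitted in R 4.3.3 with edgeR 4.0.16 (filterByExpr with a minimum count of 10 and total of 15, TMM, robust quasi-likelihood, group only, 6 libraries, 3 residual degrees of freedom). DESeq2 1.42.0 was the alternative, on the same genes. A standard error in edgeR is the log2 change divided by the square root of F. Both fits were also run on simulated data, and the outcome is not reported here. CPM used the total over genes. Replicates differed by far more than sampling noise (mean chi-square per gene of 59.2 to 176, where noise alone gives about 1), so none were merged. The floor of 3 counts covers counting error only. Same-numbered libraries did not deviate together in every pair of groups, so the replicate numbers were not taken as pairing. Alternatives were other folds, minimums, scalings and filters, DESeq2, a replicate block and leaving out each library.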

Additional observations from a re-analysis of the deposited data

Results flagged for a closer look

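Uniquely aligned reads that fell in no annotated gene enter no comparison of genes. Their share was 23.0% and 25.3% in tail mutant replicates 1 and 2 and 23.9% and 22.6% in kinase mutant replicates 1 and 2, above both empty vector libraries (22.5% and 21.3%), although the nearest libraries were almost level.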

How the results depend on the processing

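The number of members followed the thresholds. The genes higher in pair B became 161 with a fold of at least 2, 37 with a fold of at least 5 and 37 with at least 5 CPM, and those higher in pair A became 57, 3 and 8. With 1 mutant library left out of the rule they ranged from 133 to 364 and from 40 to 149. Without 1 library edgeR called 0 to 21 genes between the tail mutant and empty vector (1 with all libraries), 0 to 2 between the kinase mutant and empty vector (1), and 0 to 12 between both mutants and empty vector (4). With no filter it called 9, 2 and 49 genes, and DESeq2 called 248, 361 and 421, and 12 between the mutants. In all edgeR fits run, 0 members were called. DESeq2 called 2 members in each mutant and 4 in both together. The cause of these differences was not tested.

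With the replicate number as a block edgeR called 2 genes in each of the 3 comparisons with empty vector and 0 between the mutants. Deviations of same-numbered libraries from their group means had an r of 0.12 between empty vector and tail mutant, -0.13 between empty vector and kinase mutant and -0.35 between the mutants. With the crossed pairing as a block, added after the data were examined, edgeR called 3 genes between the mutants in the 4 mutant libraries, against 0 without a block.

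The median log2 difference between the empty vector replicates over the 80 genes became 0.50 with a pseudocount of 0.1 CPM. For ENSRNOG00000007882 the log2 change of both mutants was 0.015 without empty vector replicate 2, and ranged from -1.84 to 0.015 over the fits without 1 library. The range was 3.17 to 9.61 for ENSRNOG00000003841, 1.48 to 6.23 for ENSRNOG00000047605 and -3.08 to -1.18 for ENSRNOG00000004438. The lower-bound fold of ENSRNOG00000047605 became 91.2 and 87.0 when kinase mutant replicates 2 and 1 were left out. The places of the empty vector libraries stayed within 1.5 times under TMM and DESeq2 scaling. Without the 2 genes highest in empty vector, an alternative added after the data were examined, the share of counts in the 80 genes was lower in both empty vector libraries than in pair B. Picking the 2 genes by their level in empty vector works toward this order.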
